A study of Mus musculus with 5 samples.

Results

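Beta cells of non-pregnant mice were described here as the cells of 1 non-pregnant islet library in which Ins1 and Ins2 transcripts together made up at least 20% of the cell and Gcg, Sst and Ppy transcripts together made up under 1% of it. This rule was met by 274 of the 847 cells of that library (32.3%, exact 95% binomial interval 29.2% to 35.6%), out of 4687 cells in the 5 libraries of the study. The study counted polyadenylated transcripts of single cells by inDrop, a droplet method that marks each captured molecule with a unique molecular identifier (UMI). All groups were islets of C57BL/6 mice, isolated and dissociated to single cells. They comprised 1 library labelled non-pregnant or control, 2 labelled pregnant and 2 labelled postpartum. The labels name no allele, drug, age or number of animals, and nothing says that libraries came from separate animals. P-values between libraries therefore rest only on the spread within the pregnant and postpartum pairs. The 1 non-pregnant library shows no spread and is assumed to vary like these pairs.

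Beta cells make insulin and release it when blood glucose rises. Proinsulin is folded in the endoplasmic reticulum, cut by prohormone convertases inside secretory granules, and stored there with islet amyloid polypeptide and granins. Glucose enters the mouse beta cell through the transporter encoded by Slc2a2, and its breakdown closes ATP-sensitive potassium channels and opens calcium channels that trigger release. In rodent pregnancy, prolactin and placental lactogen act on beta cells through the receptor encoded by Prlr.

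The 274 cells held 917107 UMIs, of which 580250 lay outside the 8 hormone genes Ins1, Ins2, Iapp, Gcg, Sst, Ppy, Pyy and Ghrl. A cell held 1008 to 10589 UMIs (median 2898.5) and 386 to 3071 detected features (median 1119). The alpha cells of the same library, used below as the other endocrine class, were 66 cells with Gcg at 5% or more, insulin under 5% and Sst with Ppy under 1%. They held 109731 non-hormone UMIs, and their median cell held 2358.5 UMIs. Scrublet, a doublet caller, marked 5 of the 847 cells and 1 of the 274, and none was removed. The files number the cells and give no barcodes, so barcodes shared between libraries could not be counted.

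The hormone genes chose these cells, so their shares are a description. Ins2 took 19.1% of all UMIs of the beta cells, Ins1 10.3% and Iapp, the amyloid peptide stored with insulin, 6.58%. The insulin share of a cell ran between 20.1% and 54.0% with a median of 28.2%. Ins2 exceeded Ins1 in 273 of 274 cells, with a pooled ratio of 1.85 and a range of 1.31 to 2.93 between the 5th and 95th percentile of cells. The 2 insulin genes are near-identical paralogs, and how reads that match both were assigned is not given in the sources used here. Gcg made up 0.0968%, Sst 0.0479% and Ppy 0.0985% of the UMIs of the beta cells, and no UMI of Ghrl was seen. In the alpha cells Ins1 and Ins2 made up 1.02% of the UMIs, at an Ins2 to Ins1 ratio of 3.06, and Gcg made up 24.7%.

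**Figure D1:**
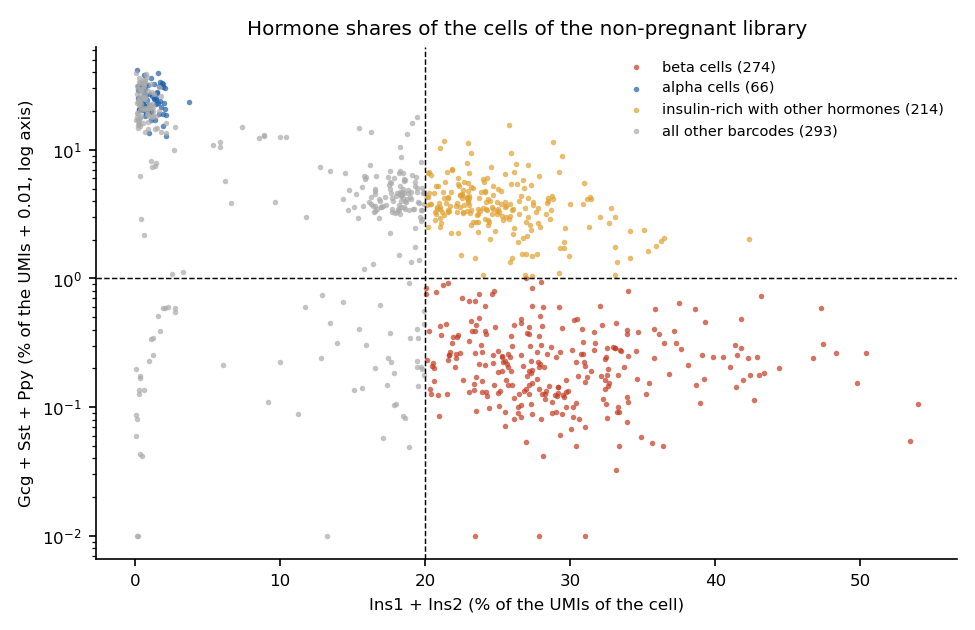
Share of Gcg, Sst and Ppy (vertical, percent of the UMIs of a cell plus 0.01, log axis) against the share of Ins1 and Ins2 (horizontal, percent) for the 847 cells of the non-pregnant library, 1 point per cell; dashed lines are the limits of 20% and 1%. The 274 beta cells lie at the lower right, below the 214 insulin-rich cells above the 1% line, whose median Gcg share was 1.88%.

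Cells lay on both sides of each limit. Between 0.5% and 1% of other hormones lay 25 insulin-rich cells just inside the limit, and between 1% and 2% lay 24 just outside it. Of cells low in other hormones, 25 held 20% to 22% insulin and 15 held 18% to 20%. G6pc2, encoding a beta cell glucose-6-phosphatase that was not part of the rule, stood at 1437 CPM (counts per 1000000 non-hormone UMIs) in the 25 cells just inside the insulin limit and at 1759 CPM in the 15 just outside it. The 3 fixed markers outside the hormones fitted the label. Nkx6-1, a transcription factor of mature beta cells, stood at 469 CPM in beta cells against 36.5 CPM in alpha cells. The glucose transporter gene Slc2a2 stood at 264 against 18.2 CPM, and the transcription factor gene Pdx1 at 210 against 9.11 CPM. After each cell was thinned to 500 non-hormone UMIs, Nkx6-1 was seen in 20.4% of beta cells and 1.52% of alpha cells, Slc2a2 in 11.3% and 0% and Pdx1 in 12.4% and 0%.

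Windows of 250 bases before the start site were available from RefSeq for 5 of the 6 markers (build GRCm38.p6). Those of the 2 hormone genes among them are shown because these genes, which RefSeq places on chromosomes 19 and 6, supplied 10.3% and 6.58% of all transcripts. Both lie on the plus strand, Ins1 at chr19:52264047-52264296 and Iapp at chr6:142298175-142298424. Capitals mark CATCTG, the E-box letters bound by NEUROD1-type factors, and TAAT, the core letters of many homeodomain sites such as those of PDX1 and NKX6-1, on either strand.
Ins1: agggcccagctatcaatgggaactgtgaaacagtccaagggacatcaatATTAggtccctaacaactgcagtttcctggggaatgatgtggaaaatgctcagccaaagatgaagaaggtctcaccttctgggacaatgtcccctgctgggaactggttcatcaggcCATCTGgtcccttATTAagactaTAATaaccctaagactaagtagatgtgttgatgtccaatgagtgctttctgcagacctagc
Iapp: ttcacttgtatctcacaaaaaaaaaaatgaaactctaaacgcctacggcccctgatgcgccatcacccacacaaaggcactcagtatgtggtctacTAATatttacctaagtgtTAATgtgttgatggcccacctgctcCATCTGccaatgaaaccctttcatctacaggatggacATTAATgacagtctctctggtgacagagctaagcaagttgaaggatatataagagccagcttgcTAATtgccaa
The Ins1 window held 1 E-box match, beginning 84 bases before the start, and 3 TAAT matches. The Iapp window held 1 E-box match, 111 bases before the start, and 5 TAAT matches, of which those at 74 and 72 bases overlap on opposite strands. Of 32851 such windows in the table, 14.4% hold CATCTG and 54.9% hold TAAT on either strand. The Slc2a2 window held 1 TAAT match and no E-box letters, and those of Pdx1 and Nkx6-1 held neither. These are matches of letters in short windows and say nothing of binding.

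The file lists 40930 features, of which 21294 had a UMI in the beta cells and 19634 had none. Of the detected features, 9258 rested on 1 to 3 UMIs. At this depth a count of 0 allows up to 5.17 CPM (3 UMIs; counting error only), against 27.3 CPM in the alpha cells. The non-hormone transcriptome was broad: the 913 highest features carried as much of it as all others together, 2123 stood at 100 CPM or more and 81 at 1000 CPM or more. Nuclear protein-coding genes took 93.4% of all UMIs, mitochondrial protein-coding genes 3.10%, long noncoding RNAs 2.30% and mitochondrial ribosomal RNA 0.454%. Levels are counts of 3′ tags and are not divided by transcript length.

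The highest levels outside the hormones belonged to mitochondrially encoded genes and to granule proteins. The respiratory chain subunit gene mt-Co2 led at 9954 CPM (exact 95% Poisson interval 9699 to 10214) and had a UMI in all 274 cells. Chga, encoding the granin chromogranin A, followed at 7249 CPM, ahead of the complex I gene mt-Nd2 at 6433, the complex III gene mt-Cytb at 6349 and the large mitochondrial ribosomal RNA mt-Rnr2 at 5689 CPM. Next came the prohormone convertase gene Pcsk2 at 5213 CPM and the granin gene Scg2 at 4974 CPM. The remaining genes of the first 20 included the growth-linked Tpt1 at 3517 CPM and the translation factor gene Eef1a1 at 3285 CPM. They also held the metallothionein genes Mt1 at 3081 and Mt2 at 2876 CPM, the carboxypeptidase gene Cpe at 3080 CPM, the endoplasmic reticulum chaperone gene Hspa5 at 2673 CPM and the membrane protein gene Cd63 at 2575 CPM. Counting all, 9 of the first 20 were mitochondrially encoded.

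Of the features, 34276 were not matched to the lists of the pregnant and postpartum files, and these carried 20.8% of the non-hormone UMIs of the beta cells, or 15.1% without mitochondrial genes. They were mostly low: 14694 had a UMI and 116 stood at 100 CPM or more. The highest of these by level were mitochondrially encoded genes and ribosomal protein genes, among them Rps23 at 1916, Rps29 at 1522 and Rpl38 at 910.0 CPM. Aes, encoding a Groucho-family corepressor, stood at 893 CPM, the translocon subunit gene Sec61g at 794 CPM and the long noncoding Gm38070 at 682 CPM. Levels of these genes can be read in the non-pregnant library alone.

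**Figure D2:**
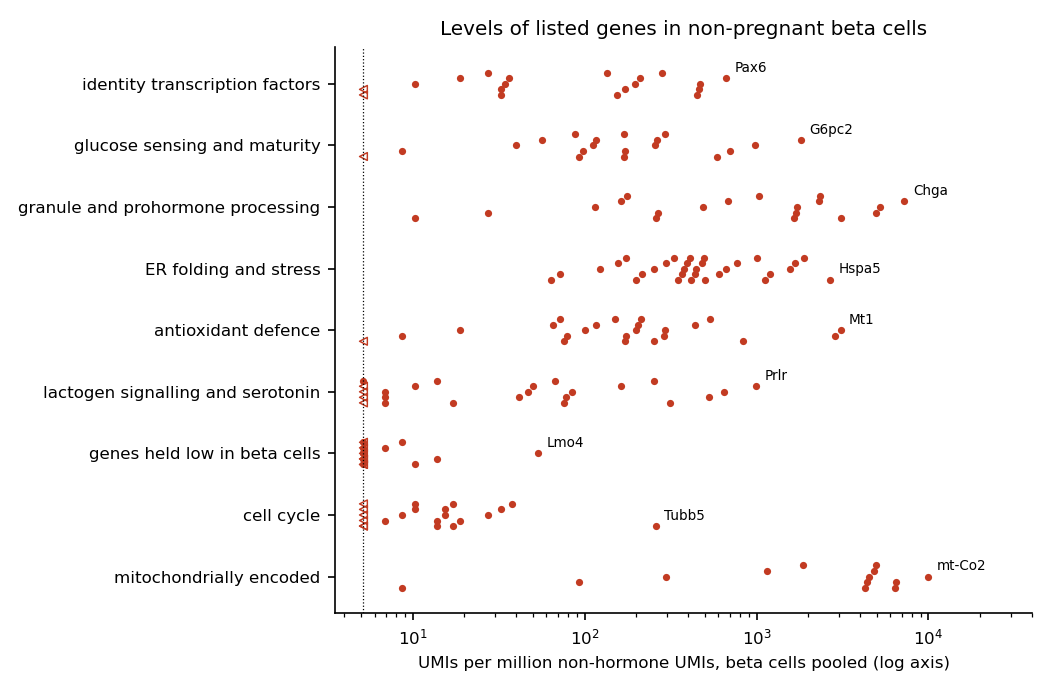
Level of each gene of 9 lists in the 274 pooled beta cells (horizontal, CPM of non-hormone UMIs, log axis), 1 point per gene with the highest gene of each list named; open triangles at the dotted line are genes under the level of 3 UMIs (5.17 CPM). Granule genes reach 7249 CPM (Chga), while the genes held low in beta cells stay at or under 53.4 CPM (Lmo4).

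Transcription factors of beta cell identity were low to moderate in level and uneven. All 19 listed genes had a UMI, at a median of 134 CPM, and 10 stood at 100 CPM or more. Pax6, needed for all islet endocrine lineages in mice, was highest at 665 CPM, followed by Nkx6-1 at 469, Neurod1 at 465 and Insm1 at 450 CPM. Mafa, an insulin gene activator of adult beta cells, had 1 UMI in 1 of 274 cells (1.72 CPM, interval 0.0436 to 9.60), and Foxa1 likewise 1 UMI. Mafa had more UMIs than this in the beta cells of every other library, all shallower, as given below. How features were counted in each file is not given, so this count is not read as a lack of Mafa. The potassium channel subunit gene Abcc8 stood at 589 CPM and its partner Kcnj11 at 93.1 CPM. Of 19 genes of glucose sensing and maturity, 12 stood at 100 CPM or more, led by G6pc2 at 1820 CPM (1712 to 1933) and Ucn3, a peptide made by mature mouse beta cells, at 981 CPM. The receptor gene Glp1r had 5 UMIs and the adenylyl cyclase gene Adcy5 had 1.

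Most granule and endoplasmic reticulum genes were plain in level. Of 19 granule genes 17 stood at 100 CPM or more, with a median of 1032 CPM, and Stx1a, encoding a membrane fusion protein, was lowest at 10.3 CPM. Of 31 genes of protein folding and its stress response 29 stood at 100 CPM or more, with a median of 414 CPM. Behind Hspa5 these were led by Manf at 1880, the signal peptidase subunit gene Spcs2 at 1677 and the chaperone gene Calr at 1565 CPM, and Ddit3, a factor of the terminal stress response, was lowest at 63.8 CPM.

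Genes that beta cells are known to hold low were low here. Of 18 such genes none reached 100 CPM, 13 had 3 UMIs or fewer and 2 (Maf and Fcgrt) had none. Low counts were not particular to this list: over all features 19634 had no UMI, 9258 had 1 to 3 and 2123 stood at 100 CPM or more. Nor were they particular to beta cells, where the list took 0.0133% of the non-hormone UMIs, against 0.0173% in alpha cells. Ldha, encoding lactate dehydrogenase, had 8 UMIs (13.8 CPM), and Slc16a1, a lactate and pyruvate transporter, had 1. The glycolytic enzyme gene Pkm stood at 808 CPM and Gapdh at 94.8 CPM. Cell cycle genes were also sparse: of 21, only Tubb5 passed 100 CPM (259 CPM, a tubulin gene not limited to dividing cells), Mki67 had 1 UMI, Top2a 2 and Ccnb2 none. Xist, the RNA of the inactive X chromosome in female cells, had 625 UMIs (1077 CPM), and 4 Y-linked genes had 10 UMIs in all, 5 of them of Kdm5d; whether the Xist tags include its antisense partner Tsix (3 UMIs) depends on strand-aware counting, which is not given.

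Lactogen and serotonin genes ranged widely, with a median of 43.9 CPM. Prlr stood at 996 CPM (917 to 1081), Ddc, encoding the decarboxylase that makes serotonin and dopamine, at 650 CPM, and the autophagy gene Wipi1 at 529 CPM. The growth hormone receptor gene Ghr stood at 252 CPM. Tph1, encoding the rate-limiting enzyme of serotonin synthesis that rises in mouse beta cells in pregnancy, had 6 UMIs (10.3 CPM), Tph2 had 1, and the serotonin receptor genes Htr2b and Htr1d had none. Of the 24 genes 6 stood at 100 CPM or more and 5 had 3 UMIs or fewer.

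Transcripts of other cell types were present at low counts. The 7 alpha cell markers outside the hormones held 124 UMIs in all, led by the transporter gene Slc7a2 with 51 and the vitamin D carrier gene Gc with 42, and 3 of them had 3 UMIs or fewer. Of acinar enzymes Ctrb1 led with 23 UMIs and 8 of 12 had 3 or fewer, and all 7 endothelial markers had 5 to 10. Of 8 macrophage markers C1qa led with 44 UMIs while Lyz2 and Adgre1 had none. Ductal keratin Krt19 and Cftr had none and Sox9 had 2 UMIs, but Spp1, encoding the secreted protein osteopontin, had 465 and Krt7, a simple-epithelium keratin, 253. Krt7 was spread over 144 cells.

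Beta cells differed from the alpha cells of the library in named metabolic, peptide and receptor genes. With 1 library there is no test between the classes, and genes at 200 CPM or more averaged over both were compared by the ratio of pooled levels with an exact interval that covers counting error only. Of 844 such features 105 (12.4%) stood at least 2-fold above and 84 (9.95%) at least 2-fold below the alpha cells, around a median log2 ratio of 0.00. The cells were chosen by hormones, which were left out, so these values describe what accompanied the hormones.

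Far above alpha cells stood genes of receptors, peptides, peptide processing and metabolism. The widest ratio was that of the protease gene Prss53, with 647 UMIs in beta cells against 1 UMI in alpha cells (122-fold, interval 21.9 to 4840). Prlr had 578 against 2 UMIs (54.7-fold, 15.1 to 452) and Ucn3 569 against 2 (53.8-fold, 14.8 to 445). G6pc2 stood at 1820 CPM in beta cells against 63.8 CPM in alpha cells (28.5-fold, 13.8 to 71.1). The fatty acid oxidation gene Hadh (27.5-fold) had 436 against 3 UMIs and the opioid precursor gene Pdyn (25.2-fold) 267 against 2. Pcsk1, encoding the convertase that begins proinsulin cleavage, stood at 684 CPM in beta cells against 27.3 CPM in alpha cells. The others of the first 15 were Fam83e, Atf5, Bace2, Spock2, Wipi1, Nkx6-1, Ero1lb and Gng12, at 46.9-fold to 10.6-fold; Ero1lb encodes an oxidase that helps to form the disulfide bonds of proinsulin.

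Far below alpha cells stood genes known from alpha cells, such as Ttr and Gc, and others. Ttr, encoding the thyroxine carrier transthyretin, stood at 391 CPM in beta cells against 18664 CPM in alpha cells (alpha 47.7-fold higher, 41.6 to 55.0). The peroxidase gene Gpx3 had 65.5 against 4912 CPM (75.0-fold higher in alpha cells). The potassium channel gene Kcnk3 had 3 UMIs against 74, and Sfrp5, a Wnt modulator, had 0 against 45, so alpha cells were at least 79.3-fold higher with 3 counts as the floor of the beta cells. Gnas, encoding the stimulatory G protein subunit and sharing its locus with overlapping transcripts, stood at 2137 against 14873 CPM. Ttr in beta cells came to 2.10% of its alpha cell level, and Gcg to 0.393% of its alpha cell share. Others were Lmtk3, Eef1a2, Rbp4, Cd81, Gc, Etv1, Pappa2 and Fgl2, 4.94-fold to 66.6-fold higher in alpha cells.

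**Figure D3:**
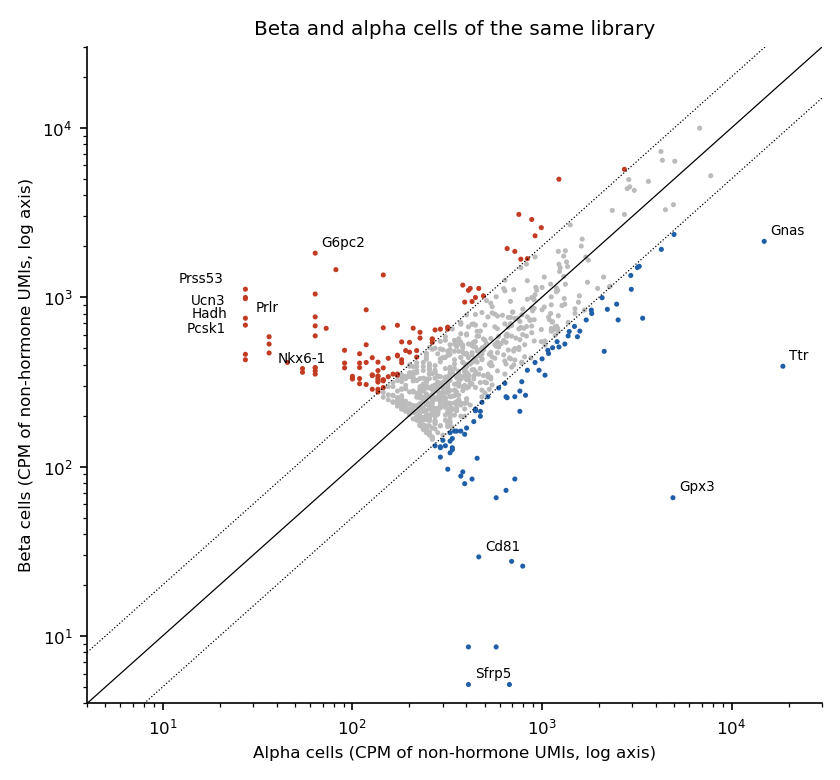
Level in the 274 beta cells (vertical) against the level in the 66 alpha cells of the same library (horizontal), both in CPM of non-hormone UMIs on log axes, 1 point per feature at 200 CPM or more on average; levels under 3 UMIs are drawn at 3 UMIs, the solid line is equality and the dotted lines are 2-fold. The 105 features in red lie at least 2-fold higher in beta cells and the 84 in blue at least 2-fold lower.

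Read against that background, some lists leaned to one side. Cytosolic ribosomal protein genes took 4.73% of the non-hormone UMIs of beta cells and 8.50% of those of alpha cells. Of the 70 compared, 22 stood at least 2-fold lower in beta cells, none at least 2-fold higher, and their median log2 ratio was -0.83. Many of these genes have near-identical pseudogenes, so their counts are uncertain. The 11 compared mitochondrially encoded genes had a median log2 ratio of 0.57 with none past 2-fold, and made up 4.91% against 3.38% of non-hormone UMIs. Of 23 folding genes 6 stood at least 2-fold higher in beta cells and none lower (median 0.60), among them Ero1lb, the co-chaperone genes Dnajb9 (4.53-fold) and Sdf2l1 (3.73-fold) and the disulfide isomerase gene P4hb (2.69-fold). Of 13 granule genes 4 were past 2-fold above, which were Pcsk1, Scg2 (4.04-fold), Scg3 (2.50-fold) and Chgb (2.01-fold), and Pcsk1n, encoding an inhibitor of that convertase, was past 2-fold below. Stress response genes of dissociation had a median of -0.08 over 9, with Jun at 112 against 456 CPM and Zfp36 at 93.1 against 383 CPM the 2 past 2-fold below. Mt1 (4.07-fold) and Mt2 (3.25-fold) were above, and Gclm, of glutathione synthesis, and Gpx3 below.

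The insulin-rich cells that also held other hormones lay between the beta and the alpha cells in Ttr, Gpx3, G6pc2, Ucn3 and Nkx6-1, and outside both in other genes. These 214 cells, outside the rule, had Ttr at 2179 CPM and Gpx3 at 496 CPM, each above its level in the beta cells and below that in alpha cells. Their levels were 1156 CPM for G6pc2, 602 CPM for Ucn3 and 276 CPM for Nkx6-1, each under its level in the beta cells and above that in alpha cells. Mitochondrially encoded genes took 6.95% of their non-hormone UMIs and nuclear respiratory chain genes 2.00%, above both classes, and the listed long noncoding RNAs 0.414%, below both. Whether they are single cells or mixtures was not tested.

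By variance over mean, cells differed among themselves most in mitochondrial, metallothionein and a few sporadic transcripts. All 274 cells were thinned to 500 non-hormone UMIs, and the variance over the mean of the thinned counts was taken, which is near 1 where cells differ by sampling alone. Over 2211 features with a thinned mean of at least 0.05 UMIs the median was 1.18, and 238 (10.8%) reached 1.5. The count depended on depth and gate: it was 43 of 966 at 250 UMIs, 939 of 4064 at 1000 UMIs and 384 of 2242 in cells of at least 30% insulin. No test was made, since cells of 1 library are not replicates.

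**Figure D4:**
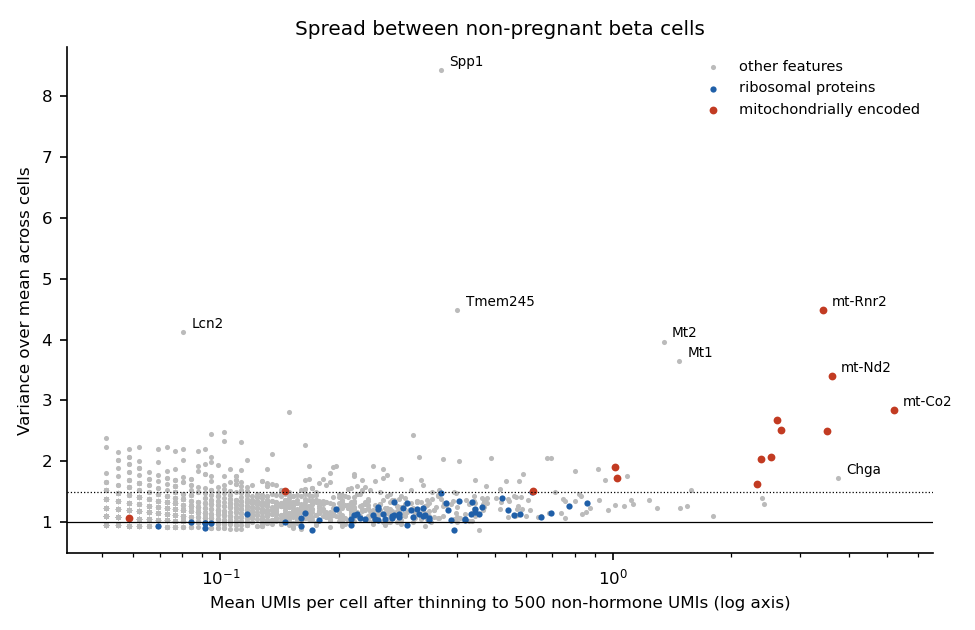
Variance over mean of thinned UMI counts across the 274 beta cells (vertical) against the mean count per cell (horizontal, log axis), 1 point per feature; the solid line at 1 is the value of sampling alone and the dotted line is 1.5. Mitochondrially encoded genes (red) lie mostly above 1.5, ribosomal protein genes (blue) below it, and Spp1 is highest at 8.43.

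Spp1 had the widest spread at 8.43. One cell held 179 of its 465 UMIs, the next held 60, and the 27 richest cells held 93.8%, while the 27 deepest cells held 22.6% of all non-hormone UMIs. The 5 cells richest in Spp1 held 0 UMIs of Krt19, Sox9, Muc1 and Cftr together, 0 to 3 UMIs of Krt7 each (3 of the 5 had at least 1) and 20.9% to 27.9% insulin. With only cells of at least 30% insulin the value was 2.53. Spp1 was seen in 13.1% of thinned beta cells, against 39.4% of thinned alpha cells. Lcn2, encoding the iron-binding protein lipocalin 2, was sporadic in the same way (4.12), with all 79 UMIs in 11 cells and 34 of them in 1.

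Mitochondrially encoded genes varied together as a group and not only singly. Of 12 compared, 11 reached 1.5, against 10.8% of all features and 27 of the 79 features with a thinned mean of at least 0.5 UMIs, led by mt-Nd2 at 3.41, mt-Co2 at 2.84 and mt-Co1 at 2.68. Their sum ran between 5 and 120 of 500 UMIs per cell (median 23, variance over mean 9.99). Of the 57 compared nuclear genes of the respiratory chain 2 reached 1.5, at a median of 1.13. For the same relative spread this measure rises with level. The nuclear list was far lower (median 183 CPM, against 4374 CPM for the mitochondrial list), so single genes cannot be compared between the 2 lists. The nuclear sum, with a mean of 8.36 UMIs against 26.8 for the mitochondrial sum, had a variance over mean of 1.40. None of 72 ribosomal protein genes reached 1.5 singly (median 1.12), while their sum ran between 6 and 46 UMIs with a variance over mean of 2.80. The ribosomal RNA mt-Rnr2 reached 4.48, but 2.31 in cells of at least 2000 UMIs.

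The metallothionein genes Mt2 and Mt1, which bind zinc and other metals, reached 3.97 and 3.64. Both ran between 0 and 17 thinned UMIs per cell, and they went together (Pearson's r = 0.69 over 274 cells, with counts that share each cell's 500 UMIs). The richest 27 cells held 54.2% of the Mt2 and 49.8% of the Mt1 UMIs. The other genes of antioxidant defence had a summed value of 1.38. Tmem245, a membrane protein gene, reached 4.49 with its UMIs in 123 cells, but 1.68 in cells of at least 2000 UMIs. Below these came Sf1 (2.81), Sp1 (2.48), Bzw1 (2.45), Tgfb1 (2.44) and the mRNA decay factor gene Zfp36 (2.39), each at a thinned mean of 0.310 UMIs or less.

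Most listed beta cell genes lay under 1.5, which at their low levels does not show that cells were alike in them. G6pc2 had 1.13, Nkx6-1 1.12, Pdx1 0.983, Ucn3 1.31, Slc2a2 1.43 and Prlr 1.43, and Chga, the highest granule gene, 1.73. The 10 compared identity factors had a median of 1.11 with 1 (Foxa2, 1.62) at 1.5 or more, and of 12 genes of glucose sensing and maturity 1 reached it, the calcium channel gene Cacna1d at 1.70. At 500 UMIs a gene of these levels is missed in many cells: G6pc2 was seen in 54.7% of thinned beta cells (3.03% of alpha cells), Ucn3 in 31.8% (0%) and Prlr in 39.1% (0%), at median depths of 2898.5 and 2358.5 UMIs before thinning.

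Beta cells were chosen by the same rule in the other libraries, over the features these list. They numbered 571 in pregnant 1, 70 in pregnant 2, 349 in postpartum 1 and 648 in postpartum 2. Their median cell held 564, 82.5, 228 and 569.5 UMIs in this order, against 2898.5 in non-pregnant. In a cell of 82.5 UMIs, 1 UMI of Gcg, Sst or Ppy is already over the 1% limit. In non-pregnant only 3 of 274 beta cells held no such UMI, so the rule did not select alike at all depths. Over the shared genes their non-hormone UMIs were 459722 in non-pregnant, 177319 in pregnant 1, 3218 in pregnant 2, 34241 in postpartum 1 and 141739 in postpartum 2 beta cells. Pregnant 2 stood apart, with 482 shared features detected against 5347 to 6572 elsewhere. The non-pregnant file differs from the others in its scale, its feature list and its depth, so these and pregnancy cannot be told apart, and both contrasts use the same non-pregnant library.

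Ins2 gave 22.1% of the UMIs of shared features in non-pregnant, 25.4% and 28.5% in pregnant and 35.5% and 44.2% in postpartum beta cells, a value the rule selects on. The levels below are means over cells in CPM of shared non-hormone genes. Limma found no gene changed between pregnant and non-pregnant beta cells and 1 of 2121 (0.0471%) between postpartum and non-pregnant, at a Benjamini-Hochberg adjusted p under 0.05. At an unadjusted p under 0.05 there were 30 and 26 genes. For pregnant against non-pregnant the edgeR and DESeq2 tests called 0, and for postpartum against non-pregnant 0 and 3. The called gene was Malat1, a nuclear noncoding RNA, with 1695 CPM in non-pregnant, 5872 and 4440 in pregnant and 9003 and 10832 CPM in postpartum beta cells. The limma change was 2.47 ± 0.54 (log2, SE) in postpartum, adjusted p = 0.00943, and 1.54 ± 0.54 in pregnant, adjusted p = 0.895. Every pregnant and postpartum library lay above the non-pregnant one. Malat1 was not called with insulin at least 30%, with edgeR or DESeq2, or without either postpartum library, where its change ran between 2.31 and 2.97. In pregnant it was called with pooled UMIs, without pregnant 1 and without pregnant 2. Most tested genes were called in pregnant without pregnant 1, mainly as lower.

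Pregnant 2 shifted the whole contrast: the median log2 change of all genes was -0.71 in pregnant against non-pregnant beta cells with it and 0.03 without it. Without it limma called 25 of 2445 genes higher (1.02%) and 28 lower (1.15%) in pregnant, and 60 higher (2.45%) and 76 lower (3.11%) in postpartum beta cells. The lone pregnant and non-pregnant libraries are then assumed to vary like the postpartum ones.

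Several genes were plentiful in the non-pregnant library and nearly missing elsewhere, or the reverse. Tpt1 had 2041 UMIs in non-pregnant beta cells, 12 and 0 in pregnant and 1 and 3 in postpartum ones, a limma change of -5.15 ± 1.41 in pregnant (adjusted p = 0.293) and -5.21 ± 1.41 in postpartum (adjusted p = 0.123). Gpx4, encoding a lipid peroxidase, had 482 UMIs against 12, 0, 1 and 2, Wipi1 307 against 4, 0, 0 and 7, and the ribosomal protein gene Rpl31 374 against 6, 0, 0 and 8, in the same order of libraries. Mafa ran the other way, with 1 UMI in non-pregnant, 226 and 2 in pregnant and 66 and 203 in postpartum beta cells. None of these 5 passed limma over all libraries as fitted here. Tpt1 was called lower in postpartum by DESeq2 (adjusted p = 0.0126) and in both contrasts by limma with a pseudocount of 500 CPM. Without pregnant 2, which leaves 1 pregnant library, all passed limma in both contrasts. Nkx6-1 had 272 UMIs (619 CPM) in non-pregnant, 25 and 0 in pregnant and 2 and 12 in postpartum beta cells. It was not called in either contrast over all libraries. When either pregnant library was left out, which leaves 1, it was called lower in postpartum. In pregnant it was called lower without pregnant 1, as were most tested genes, and not called without pregnant 2. Its log2 change in postpartum was -2.14, with or without either pregnant library. In pregnant it was -2.25 over all libraries, -2.85 without pregnant 1 and -1.66 without pregnant 2. How the features were built in each file was not tested as a source.

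Slc2a2, Pdx1 and G6pc2 were not called in either contrast, with or without pregnant 2. Without pregnant 1, pregnant 2 stands alone, and most tested genes were called lower in pregnant (median log2 change -1.50 over all genes). Slc2a2 and Pdx1 were among them. Slc2a2 stood at 332 CPM in non-pregnant, 283 and 0 in pregnant and 370 and 356 CPM in postpartum beta cells, and Pdx1 at 279.6, then 327 and 0, then 302 and 190 CPM. G6pc2 stood at 2166, then 2623 and 0, then 3062 and 3124 CPM in the same order. The zeros are those of pregnant 2, where 1 UMI of the pool is worth 311 CPM. The granin gene Chgb was at 2031 CPM in non-pregnant, 4639 and 12815 in pregnant and 7221 and 6806 CPM in postpartum beta cells, and Pcsk2 at 6439, then 10464 and 11688, then 11759 and 14620 CPM. For both genes the non-pregnant library was lowest, with adjusted p of 0.229 for Chgb and 0.123 for Pcsk2 in postpartum by limma. Without pregnant 1, where most tested genes were called in pregnant, and without pregnant 2, both were called higher in both contrasts. Pcsk2 was also called in postpartum with a pseudocount of 500 CPM, and Chgb in pregnant with a pseudocount of 10 CPM and with pooled UMIs. Ftl1, encoding ferritin light chain, stood at 812 CPM in non-pregnant, 4848 and 5827 in pregnant and 1166 and 1224 CPM in postpartum beta cells (2.57 in pregnant by limma, adjusted p = 0.895). Without pregnant 1 and without pregnant 2 Ftl1 was called, at 2.70 and 2.44.

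**Figure D5:**
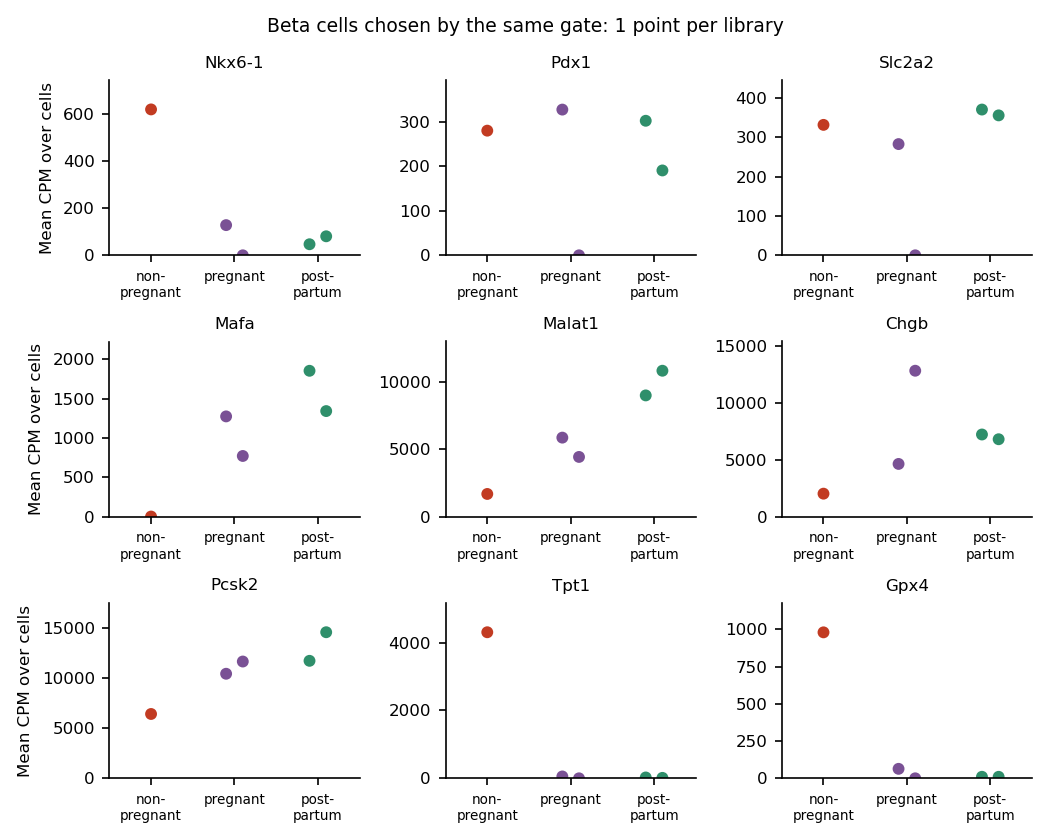
Mean level over beta cells (vertical, CPM of shared non-hormone genes, linear axes from 0) of 9 genes in the non-pregnant, pregnant and postpartum libraries, 1 point per library. Tpt1, Gpx4 and Nkx6-1 are highest and Malat1, Chgb, Pcsk2 and Mafa lowest in the non-pregnant library.

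The lists set the non-pregnant beta cells beside the others. In postpartum against non-pregnant beta cells the 21 tested stress and immediate early genes had a median log2 change of 1.32, with 19 higher and none called, against -0.02 over all genes. In pregnant 17 of the 21 were lower (median -0.63, against -0.71 over all genes), and without pregnant 2 13 of 20 (median -0.14). Fos stood at 136 CPM in non-pregnant, 158 and 0 in pregnant and 1967 and 1936 CPM in postpartum beta cells, and Jun at 141, then 72.6 and 0, then 2271 and 2223 CPM. Without pregnant 2, 18 of 20 were higher in postpartum (median 1.35, against -0.02 over all genes). Of 12 lactogen and serotonin genes 10 were higher in postpartum (median 1.12, against -0.02 over all genes, none called). In pregnant 8 were lower (median -0.44, against -0.71 over all genes, none called). Without pregnant 2, 7 of 11 were higher in pregnant (median 0.23, against 0.03 over all genes) and 9 of 11 in postpartum (median 1.30). Prlr stood at 1362 CPM in non-pregnant, 2033 and 2413 in pregnant and 6905 and 7469 CPM in postpartum beta cells. Fmo1, a monooxygenase gene, stood at 53.4, then 173 and 0, then 756 and 1832 CPM. Wipi1 was among those lower in postpartum (-2.73 in log2 by limma). Of 64 ribosomal protein genes 53 were lower in postpartum (median -1.19, against -0.02 over all genes, none called). In pregnant 56 were lower (median -1.79, against -0.71 over all genes, none called). Without pregnant 2, 52 of 64 were lower in postpartum (median -1.19, against -0.02 over all genes). In pregnant 46 were then lower (median -0.46, against 0.03 over all genes). The 12 genes of glucose sensing and maturity had a median of 0.17 with 9 higher and none called in postpartum. Without pregnant 2, 9 of 13 were higher in postpartum (median 0.16, against -0.02 over all genes). Where no gene of a list is said to be called, the fit over all libraries is meant. Without pregnant 2, genes of the stress, lactogen and ribosomal lists were called in both contrasts, and none of glucose sensing. That fit holds 1 pregnant library, so its calls are not counted here.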

How the data were processed

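The members, the gene lists and the rules for naming genes were chosen with earlier results of these data known. The authors deposited the non-pregnant library as a linear signal in which every cell sums to 3023.99 over 40930 features (2 repeated names were summed), and the pregnant and postpartum libraries as log2 values of CPM plus 1 over 6695 features. The submitters' processing notes name Partek 8.0 and Bowtie 1.1.1 without their roles, and GRCm38 with mm10 as builds. How UMIs were counted, on which annotation and after which cell filters is not given in the sources used here. Whole UMIs per cell were recovered as multiples of the smallest step of a cell, and 100% of values lay within 0.1 of a whole number. The count tests that use them were alternatives. Symbols turned into dates (24 in the non-pregnant file, 0.0958% of beta cell UMIs) and Gm42418 (0.281%) were left out, with Rn45s in the other files.

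Levels (CPM) are pooled UMIs per 1000000 non-hormone UMIs. Intervals (exact Poisson for levels, exact binomial for shares and ratios, 95%) and the floor of 3 counts cover counting error only. Features were matched between files by symbol (6543) or unique synonym (83), and 38832 matched GENCODE vM21. Named were the 6 markers, up to 6 list members with extremes or a ratio past 2-fold, the first 20 by level, by level among unmatched features and by spread, the first 15 by ratio in each direction, and the called or lowest-p genes between libraries. Limma 3.58.1 (R 4.3.3) with a trend was run once over 5 libraries and 3 groups on log2 of the mean CPM over cells plus 100, for genes at 100 CPM or more on average, with 2 residual degrees of freedom and an infinite prior, two-sided. Under this infinite prior each gene took the spread fitted for its level and not its own. A pseudocount of 100 understates changes of low genes. Scrublet ran in scanpy 1.11.5. EdgeR 4.0.16 and DESeq2 1.42.0 on summed UMIs were alternatives, as were other gates, thinning depths, filters and left-out libraries. The scripts were tested on simulated data. Some genes that these rules name are not reported here.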

Additional observations from a re-analysis of the deposited data

How the results depend on the processing

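No paired analysis was possible because the non-pregnant group holds 1 library. The number of beta cells was 110 with insulin at least 30%, 311 at 10% and 196 with at least 2000 UMIs per cell, and kept within its interval under the other 3 gates. Features at 100 CPM or more stayed within 1.5 times under 7 alternatives. Features with a variance over mean of 1.5 or more numbered 939 when thinned to 1000 UMIs, 43 at 250 UMIs and 384 with insulin at least 30%. Without the filter on low values 1696 features were counted at least 2-fold above and 11864 at least 2-fold below alpha cells. There a count of 0 was set to 3 UMIs, which is 27.3 CPM in alpha cells and 5.17 CPM in beta cells. Low features unseen in alpha cells were thereby counted as below, so these 2 counts do not compare the classes. All 30 named ratios kept their direction under the other 2 alternatives. Genes called by limma in pregnant beta cells numbered 1 with a pseudocount of 10 CPM, 1 with 500 CPM and 2 with pooled UMIs, and 0 to 1573 when a library was left out. In postpartum beta cells they numbered 4 with a pseudocount of 500 CPM, 0 with insulin at least 30%, 0 with edgeR and 3 with DESeq2, and 0 to 136 when a library was left out. The highest counts were 1573 without pregnant 1, which leaves pregnant 2 with 3218 UMIs, and 136 without pregnant 2; without either postpartum library no gene was called in either contrast, and Malat1 was then not called, nor with insulin at least 30%, edgeR or DESeq2. Changes not called over all libraries that turned sign were Pcsk2 in pregnant (-0.12 with edgeR, -0.17 with DESeq2), Slc2a2 in postpartum (-0.26 with insulin at least 30%, -0.057 with DESeq2) and Pdx1, which ran between -1.92 and 0.17 in pregnant and between -0.39 and 0.082 in postpartum when a library was left out, positive without pregnant 2 and without postpartum 2. The causes were not tested. Taking hormone shares of the whole cell, an alternative added after seeing the data, gave 0 and 1 calls. Depth limits low genes: a count of 0 allows up to 5.17 CPM in the beta cells.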
